A study of Homo sapiens with 4 samples.

Results

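The IKK and NF-κB pathway genes described here are CHUK, IKBKB and IKBKG, which encode the IKK kinase complex, NFKB1, NFKB2, RELA and RELB, which encode NF-κB subunits, NFKBIA and TNFAIP3, which encode inhibitors of the pathway, and CXCL8, a chemokine gene and a known NF-κB target. They were chosen by symbol, with earlier results of these data known, and 10 of 10 were found among the 16834 genes of the deposited table. RNA was measured in MIA PaCa-2 cells, an established human line of pancreatic ductal adenocarcinoma (PDAC) of wild-type genotype per the labels. Cells were labelled control, without a named vehicle, or received 1 µM NBT (neobractatin, a compound from the plant Garcinia bracteata), 5 µM trametinib (a MEK inhibitor), or both drugs together (combination), for 12 h. There was 1 library per condition, no value could be checked in a replicate, and how much separate cultures vary was not measured. The sample titles name MIA PaCa-2 throughout, whereas the cell line field of the labels carries a different number for each library.

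NF-κB is a family of transcription factors that act as dimers of related subunits. In resting cells the dimers are held in the cytoplasm by inhibitors of the IκB family or by the inhibitory part of their own precursors. The IKK complex, with a pair of kinases and the regulatory subunit NEMO, phosphorylates IκB in the canonical branch, which frees RELA-containing dimers, while CHUK acts in the noncanonical branch, in which the NFKB2 product p100 is processed to p52 and pairs with RELB. Several NF-κB targets are brakes of the pathway itself, among them NFKBIA and TNFAIP3. The study placed the IKK kinases under AKT and reported lower total as well as phosphorylated IKKα/β protein with the combination in PDAC cells. RNA levels, which do not report protein amount, phosphorylation or nuclear entry, are described here.

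The libraries held between 18776212 and 19614763 estimated reads, and the 10 most abundant genes took between 6.45% and 7.17% of them. The epithelial markers KRT8, KRT18 and EPCAM were abundant, EPCAM at 209 to 242 TPM (a level per transcript length, scaled to the library), and KRT8 and KRT18 were lower in both libraries with trametinib. Of the same list SOX9 had 1183 reads in the control and 169 and 201 in the trametinib and combination libraries, and VIM, a mesenchymal marker, had 202 against 425 and 500. KRT7, also of this list, was low at 5.74, 4.88, 2.78 and 2.25 TPM in the control, NBT, trametinib and combination libraries. KRT19 was not analysed here. Of the immune markers PTPRC stayed at or below 0.99 TPM, CD68 stood at 91.9 to 139 TPM, and CD3E had 0 reads in the control and NBT libraries, 55 with trametinib and 29 with the combination. Fibroblast markers summed to at most 1.88 TPM and endothelial markers to at most 0.67 TPM, and the acinar marker CPA1 to at most 0.08 TPM. The part of these marker differences in the results below was not tested. All 6 genes of a list of MAPK outputs were lower in the 2 libraries with trametinib, with log2 ratios against control between -5.18 and -1.45.

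Promoter windows, the 250 bases before a RefSeq start site (GRCh38.p14), were found for 8 of the 10 genes, 15 windows in all, and RELB and IKBKB had none in the table used. The stretches below are printed because they carry the NF-κB patterns of the genes whose levels differed most between libraries, and that of NFKB1 because its level differed least. Capitals mark matches to GGNNNTTCC (κB core), to the κB consensus or to TGANTCA (AP-1), on either strand, and only bases outside exons annotated by GENCODE, or a short site of 30 bases, are shown. Positions are counted backwards from the start site.
NFKBIA, chr14:35404750-35404999, minus strand, bases -250 to -1: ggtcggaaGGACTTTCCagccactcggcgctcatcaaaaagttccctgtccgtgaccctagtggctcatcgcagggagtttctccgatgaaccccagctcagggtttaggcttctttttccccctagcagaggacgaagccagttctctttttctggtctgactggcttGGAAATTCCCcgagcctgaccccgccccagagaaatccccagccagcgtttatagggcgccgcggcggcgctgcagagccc
CXCL8, chr4:73740319-73740505, plus strand, bases -250 to -64: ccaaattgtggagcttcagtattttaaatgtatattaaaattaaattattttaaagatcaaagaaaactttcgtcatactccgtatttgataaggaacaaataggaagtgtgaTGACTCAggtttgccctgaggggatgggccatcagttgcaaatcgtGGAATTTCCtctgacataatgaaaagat
NFKB1, chr4:102501109-102501328, plus strand, bases -250 to -31: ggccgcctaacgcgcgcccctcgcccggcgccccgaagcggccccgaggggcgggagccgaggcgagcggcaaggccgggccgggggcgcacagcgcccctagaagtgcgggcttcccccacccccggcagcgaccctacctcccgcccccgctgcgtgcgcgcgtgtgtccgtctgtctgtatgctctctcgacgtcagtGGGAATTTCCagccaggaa
NFKB2, chr10:102394467-102394496, plus strand, bases -111 to -82 of the second of 3 windows: tcatGGGAATTCCCCcctccggggggccga
TNFAIP3, chr6:137867188-137867217, plus strand, bases -71 to -42: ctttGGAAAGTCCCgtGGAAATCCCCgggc

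The κB core pattern occurred in 8 of the 15 windows and in 7 of the 8 genes with a window (CHUK, CXCL8, IKBKG, NFKB1, NFKB2, NFKBIA and TNFAIP3), and it was present in 17.1% of all 35116 windows. The κB consensus, whose matches overlap those of the core pattern, occurred in NFKB1, NFKB2, NFKBIA and TNFAIP3 and in 5.21% of all windows. CXCL8 had the AP-1 pattern at -137 to -131 and the κB core pattern at -91 to -83, that is, 1 of each in the printed stretch. The AP-1 pattern was also found in IKBKG and in 6.57% of all windows. TATAAA was found in CXCL8 at -31 to -26, in the part not printed, and in NFKBIA on the other strand at -33 to -28, and in 10.7% of all windows. RELA held none of these patterns in its windows. Matches were counted over whole windows, including the parts that lie in annotated exons. A match is a run of letters and not evidence that a factor bound there, and no binding was measured.

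**Figure D1:**
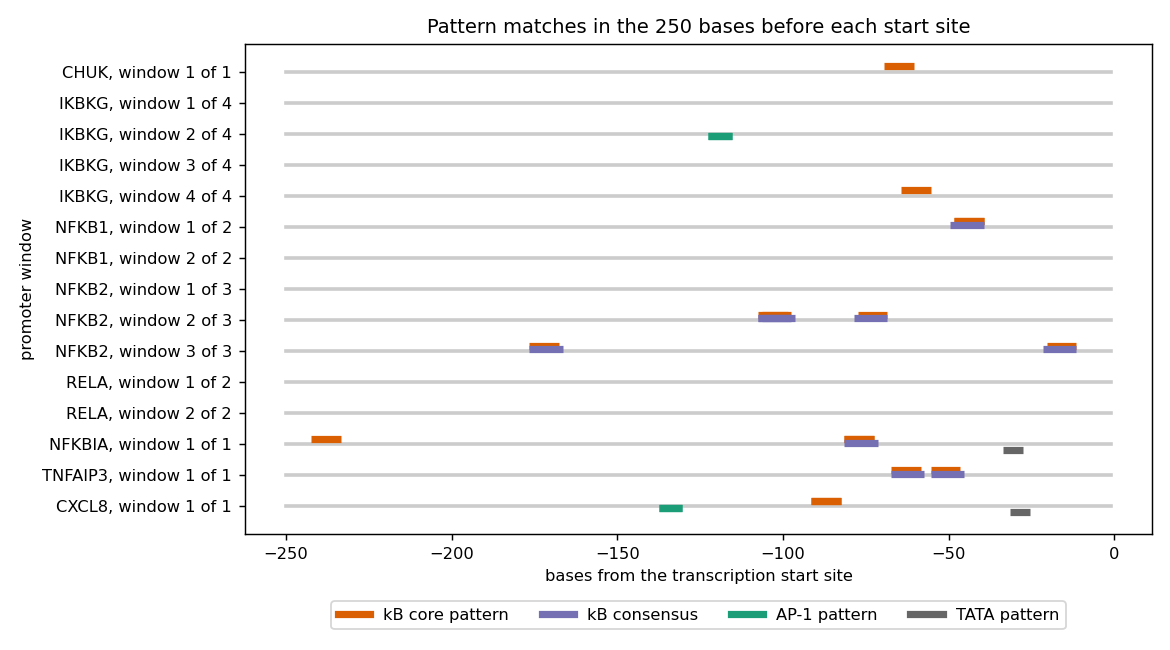
Matches to 4 sequence patterns in the 15 promoter windows, with bases from the start site on the x axis and 1 row per window. NFKB2, NFKBIA and TNFAIP3 each hold 2 or more κB core matches, CXCL8 holds 1 beside an AP-1 match, and the RELA windows hold none.

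The level of each gene in each library is given as TPM. RELA was the highest of the 10 in every library, between 110.25 TPM with trametinib and 143.58 TPM with the combination, and exceeded 92.1% of all genes of the table in the control library. CXCL8 was the lowest in every library, between 0.97 and 2.30 TPM. In the control library the order was RELA, IKBKG, NFKB2, NFKBIA, CHUK, NFKB1, RELB, TNFAIP3, IKBKB and CXCL8, and each neighbouring pair had separate 95% counting intervals except RELB and TNFAIP3. With trametinib NFKBIA stood second at 78.87 TPM, and its interval overlapped that of IKBKG, which in turn overlapped that of NFKB2. With the combination NFKB2 stood second at 83.33 TPM, overlapping IKBKG at 80.13 TPM. With NBT the intervals of CHUK, NFKBIA and NFKB1 overlapped in turn, as did those of RELB, IKBKB and TNFAIP3. Such RNA levels cannot tell fewer expressing cells from less RNA per cell. The intervals come from the read counts and cover counting error only. They are too narrow for a comparison of cultures, because variation between cultures was not measured. PCR copies of a molecule are also counted as separate reads.

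**Figure D2:**
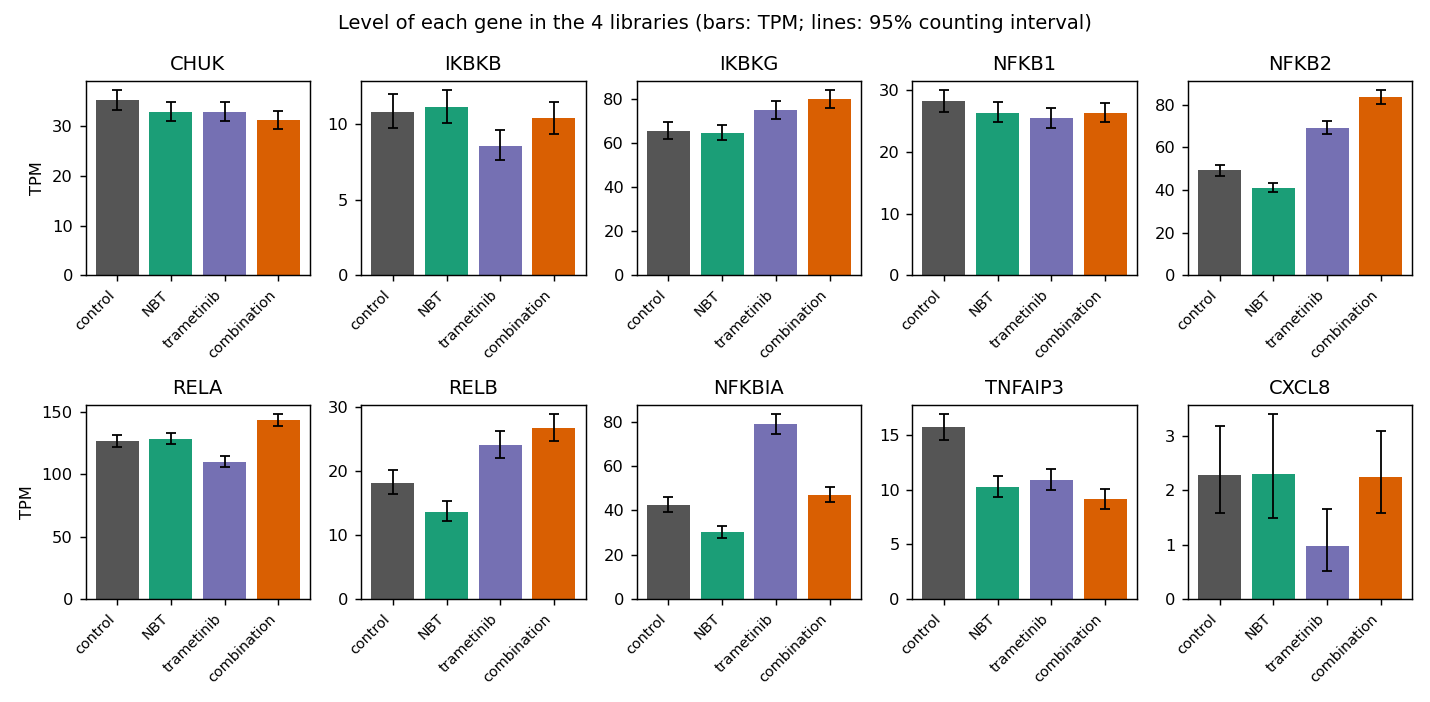
Level of the 10 genes in the 4 libraries (y axis, TPM, with a separate scale for each gene). Bars are the values of single libraries and lines are 95% counting intervals. NFKB2 reaches 83.33 TPM with the combination, NFKBIA 78.87 TPM with trametinib, and TNFAIP3 is highest in the control at 15.66 TPM.

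To compare libraries, the estimated counts were rounded and scaled to the library sums, and the log2 ratio was taken after adding 0.5 reads. A gene was called when an exact binomial test of its counts in 2 libraries passed a false discovery rate of 0.05 over all genes tested and its absolute log2 ratio was at least 1, which are the limits of the study. With 1 library per condition this test compares libraries and not conditions. The comparisons share libraries and are therefore not independent of each other.

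The genes of the IKK complex differed little between libraries, and none was called. CHUK (NCBI Gene 1147, chr10:100188298-100229619), the kinase IKKα, had 1198 control reads, 1169 under NBT, 1107 under trametinib and 1104 under the combination. All 3 treated libraries were below the control, and the largest log2 ratio was -0.18 (95% interval from -0.30 to -0.062) with the combination. IKBKB (NCBI Gene 3551, chr8:42271302-42332653), the kinase IKKβ, had 376, 420, 311 and 392 reads in the same order. The trametinib library was the lowest, with a log2 ratio of -0.29 (from -0.51 to -0.067), and the combination library was level with the control at -0.0030 (from -0.21 to 0.21). IKBKG (NCBI Gene 8517, chrX:154541199-154565046), the regulatory subunit NEMO, had 1197, 1295, 1434 and 1594 reads. Its log2 ratio was 0.064 (from -0.051 to 0.18) under NBT, 0.25 (from 0.14 to 0.36) under trametinib and 0.35 (from 0.24 to 0.46) under the combination, a fold of 1.27. The NBT value turned to -0.019 when computed from TPM. IKBKG is known to have a near-identical pseudogene copy, its estimated counts were whole numbers, and how reads of the copy were counted was not tested. CHUK overlaps ERLIN1 on the same strand, which had log2 ratios of -0.058, -0.20 and -0.32, also lowest with the combination, and the estimated counts of CHUK and IKBKB were not whole numbers, as happens when reads are divided between genes. By annotated position CHUK overlaps 2 genes, and IKBKG, RELA and TNFAIP3 overlap 1 each. The part of these overlaps in the counts was not tested.

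Among the subunits, NFKB2 and RELB were higher in both libraries with trametinib and lower with NBT alone, RELA followed another order, and NFKB1 was level. NFKB2 (NCBI Gene 4791, chr10:102394110-102402529), which encodes the p100 precursor of p52, had 1356 control reads, 1262 under NBT, 1997 under trametinib and 2494 under the combination. The log2 ratio against control was -0.15 (from -0.27 to -0.042) under NBT, 0.55 (from 0.44 to 0.65) under trametinib and 0.82 (from 0.72 to 0.91) under the combination, a fold of 1.76. The combination library exceeded the trametinib library by 0.27 (from 0.19 to 0.36) and the NBT library by 0.97 (from 0.87 to 1.07) on the log2 scale, the latter a fold of 1.96 that just missed the limit of 1 and passed it when computed from TPM.

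RELB (NCBI Gene 5971, chr19:45001430-45038198), the partner of p52, had 379, 306, 518 and 607 reads in the same order. Its log2 ratio was -0.36 (from -0.58 to -0.14) under NBT, 0.44 (from 0.24 to 0.63) under trametinib and 0.62 (from 0.43 to 0.81) under the combination. The combination library exceeded the NBT library by 0.97 (from 0.77 to 1.18) on the log2 scale, close to the value of NFKB2, and exceeded the trametinib library by 0.18 (from 0.0075 to 0.35). RELB thus had the library order of NFKB2, with NBT lowest and the combination highest. Neither was called in any comparison.

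RELA (NCBI Gene 5970, chr11:65653596-65663094), the p65 subunit of the canonical dimer, had 2964 control reads, 3271 under NBT, 2652 under trametinib and 3614 under the combination. The trametinib library was the lowest, at a log2 ratio of -0.17 (from -0.25 to -0.098), and the combination library the highest, at 0.22 (from 0.15 to 0.29). Between these 2 libraries the log2 ratio was 0.40 (from 0.32 to 0.47), a fold of 1.32. NFKB1 (NCBI Gene 4790, chr4:102501329-102617302), the p105 precursor of p50, had 1050, 1043, 999 and 1046 reads. Its log2 ratios against control lay between -0.085 and -0.060, and all 5 of its intervals included 0, except that with TMM or median-of-ratios scaling the trametinib value became -0.16 or -0.15 with an interval below 0.

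NFKBIA and TNFAIP3, both brakes on the pathway, differed from each other in their order across libraries. NFKBIA (NCBI Gene 4792, chr14:35401511-35404749), which encodes the inhibitor IκBα, had 618 control reads, 478 under NBT, 1180 under trametinib and 737 under the combination. The trametinib library stood far above the others, with a log2 ratio against control of 0.92 (from 0.78 to 1.06), a fold of 1.89. The NBT library was the lowest at -0.42 (from -0.60 to -0.25), and the combination library was near the control at 0.19 (from 0.035 to 0.35). NFKBIA was lower in the combination than in the trametinib library by a log2 ratio of -0.73 (from -0.86 to -0.59), a fold of 0.604, and higher than in the NBT library by 0.61 (from 0.44 to 0.78). None of these values reached the limit of 1.

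TNFAIP3 (NCBI Gene 7128, chr6:137867188-137883312), which encodes the ubiquitin-editing enzyme A20, had 672 control reads, 477 under NBT, 483 under trametinib and 413 under the combination. All 3 treated libraries were below the control, at log2 ratios of -0.54 (from -0.72 to -0.37), -0.49 (from -0.66 to -0.32) and -0.76 (from -0.95 to -0.59). The single-drug libraries had nearly the same value, and the combination library was below the trametinib library by -0.28 (from -0.47 to -0.083) and the NBT library by -0.22 (from -0.41 to -0.028). With trametinib alone NFKBIA was higher and TNFAIP3 lower than in the control.

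CXCL8 (NCBI Gene 3576, chr4:73740506-73743716), a chemokine that attracts neutrophils, was the only one of the 10 genes to be called, on few reads. It had 35 control reads, 25 under NBT, 13 under trametinib and 37 under the combination. It was lower with trametinib at a log2 ratio of -1.41 (from -2.48 to -0.49), a fold of 0.377, and higher with the combination than with trametinib at 1.42 (from 0.51 to 2.50), a fold of 2.68. The control and combination libraries were level at 0.016 (from -0.69 to 0.73), a value whose sign turned with the scaling. The NBT value of -0.53 (from -1.34 to 0.25) included 0 and became 0.012 when computed from TPM. Both calls of CXCL8 were lost when a coefficient of variation of 0.2 between cultures was assumed.

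**Figure D3:**
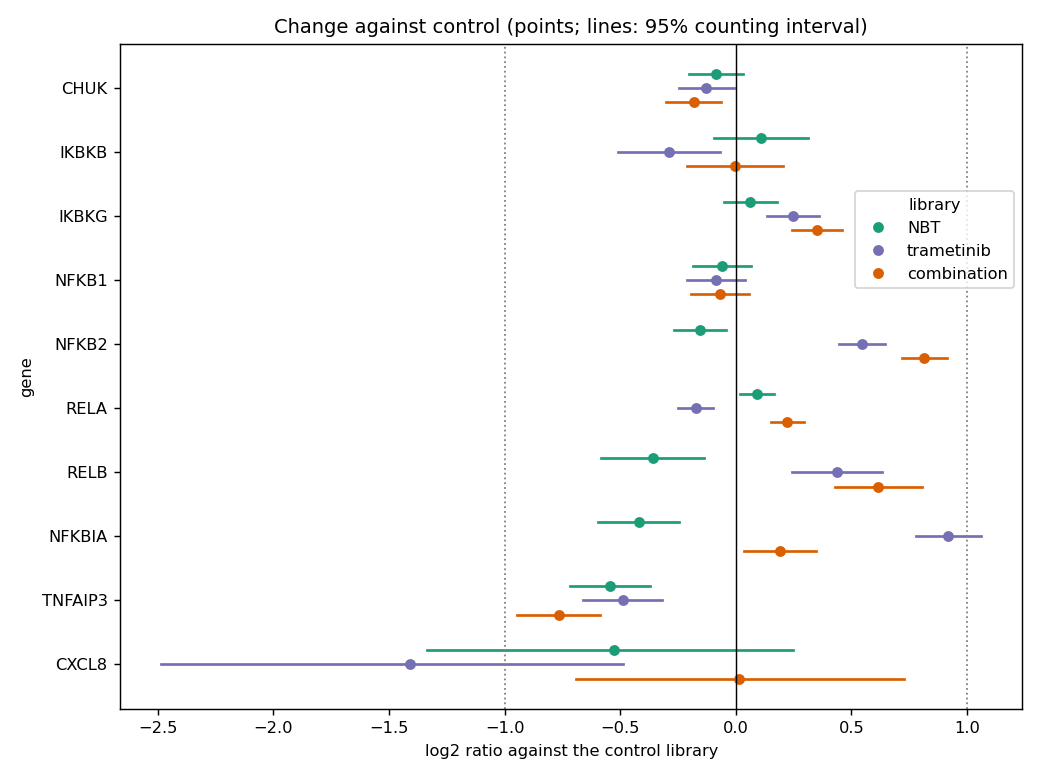
Log2 ratio of each treated library against the control library (x axis) for the 10 genes (y axis). Points are single values, lines are 95% counting intervals, and dotted lines mark the limit of 1 in either direction. NFKB2 and RELB lie right of 0 in both trametinib-containing libraries, TNFAIP3 lies left of 0 in all 3, and CXCL8 with trametinib lies past the limit with the widest interval.

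Counted over the 10 genes, 0 were called under NBT, 1 under trametinib (CXCL8, lower) and 0 under the combination, against 2.61%, 5.96% and 8.42% of all genes tested. Split by direction, 1.6% of all genes were called higher and 1.01% lower under NBT, 3.82% and 2.15% under trametinib, and 4.73% and 3.69% under the combination. Between the combination and trametinib libraries 1 of 10 was called (CXCL8, higher), against 6.11% of all genes, 2.56% higher and 3.55% lower, and between the combination and NBT libraries 0, against 4.36%, 2.38% higher and 1.99% lower. Counting intervals that exclude 0 were more frequent, as they also were among all genes. With NBT 1 gene (RELA) had its interval above 0 and 4 (NFKB2, RELB, NFKBIA and TNFAIP3) below, beside 19.6% and 21.6% of all genes. With trametinib 4 (IKBKG, NFKB2, RELB and NFKBIA) were above and 5 (CHUK, IKBKB, RELA, TNFAIP3 and CXCL8) below, beside 28.3% and 19.3%. With the combination 5 (IKBKG, NFKB2, RELA, RELB and NFKBIA) were above and 2 (CHUK and TNFAIP3) below, beside 27.9% and 25.2%. The combination exceeded trametinib in 5 genes (IKBKB, NFKB2, RELA, RELB and CXCL8) and was below it in 2 (NFKBIA and TNFAIP3), beside 22.6% and 26.9%, and it exceeded NBT in 5 (IKBKG, NFKB2, RELA, RELB and NFKBIA) and was below it in 1 (TNFAIP3), beside 23.4% and 19.3%. The share of such intervals depends on read depth, and 9 of the 10 genes had more reads than CXCL8 by far. The shares of all genes include every gene with at least 1 read, so these counts and shares are not alike in depth. The median log2 ratio of the 10 was -0.12 under NBT, -0.11 under trametinib and 0.10 under the combination.

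The study asked how the 2 drugs act together, so the log2 ratio of the combination was set against the sum of the values under each drug alone. The departure from that sum was 0.42 (95% counting interval from 0.28 to 0.56) for NFKB2, 0.54 (from 0.26 to 0.81) for RELB and 0.30 (from 0.20 to 0.41) for RELA. For these 3 subunit genes the combination library was above the sum, and the NBT ratio of NFKB2 and RELB and the trametinib ratio of RELA were negative without and positive with the other drug. NFKBIA departed the other way by -0.31 (from -0.53 to -0.091), with a sum of 0.50 against a measured 0.19. TNFAIP3 was above the sum by 0.27 (from 0.015 to 0.52), with a sum of -1.03 against -0.76. The intervals of CHUK, IKBKB, IKBKG and NFKB1 included 0. CXCL8 departed by 1.95 (from 0.79 to 3.11), but it did not reach 50 reads in any library, and the value was 1.12 when computed from TPM. Among the 11367 genes with 50 reads in at least 1 library, 2.33% departed by 1 or more, and none of the other 9 genes did. Intervals above 0 were found for 19.1% and below 0 for 24% of these genes. The departure of a gene uses all 4 libraries once and was not tested, because variation between cultures was not measured.

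**Figure D4:**
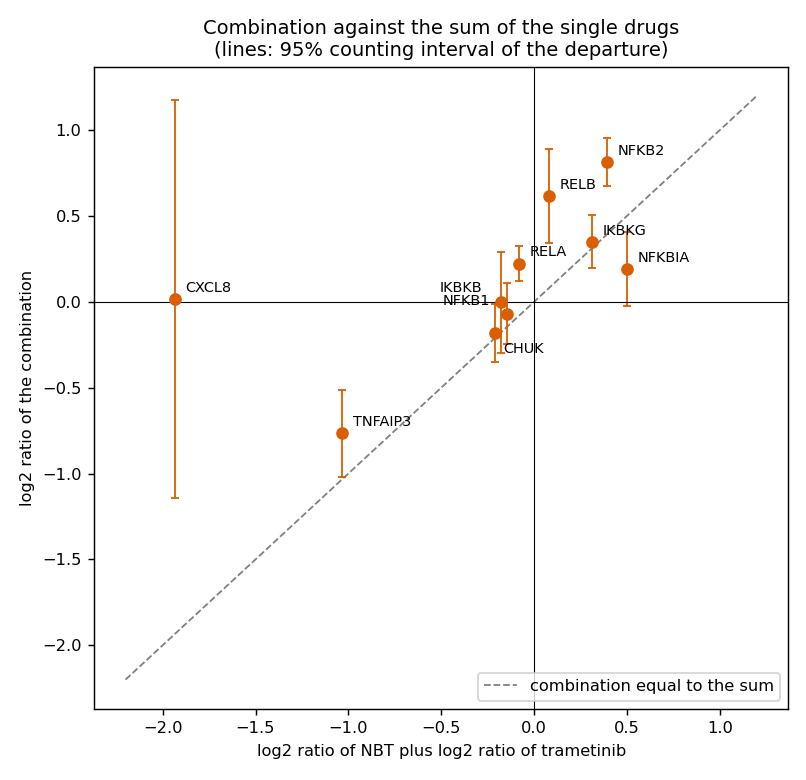
Log2 ratio of the combination against control (y axis) plotted against the sum of the log2 ratios of NBT and trametinib (x axis) for the 10 genes. Lines are 95% counting intervals of the departure, and the dashed line marks a combination equal to the sum. NFKB2, RELA and RELB lie above the line, NFKBIA lies below it, and CXCL8 lies farthest above with the widest interval.

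The deposited table of 70268 transcripts divides the reads of each gene between its RefSeq transcripts. NFKBIA has 1 transcript in it, so its value is not affected by this division. RELA rested mainly on NM_021975.4, which held between 84.9% and 87.2% of its TPM in all libraries. CHUK, IKBKB and IKBKG also had 1 transcript above 50% in every library, from 59.5% to 81.3% for IKBKG. For RELB the share of NM_006509.4 was 61.7% in the control, 41.4% under NBT, 56.6% under trametinib and 94.98% under the combination. For NFKB2 the share of NM_001261403.3 was 36.8%, 34.4%, 47.6% and 50.3%. Its level was 18.08, 14.13, 32.84 and 41.93 TPM, in the library order of the whole gene, as was that of XM_011539831.2. NM_002502.6 (3.83, 12.31, 3.59 and 14.05 TPM) and NM_001322934.2 (10.69, 5.69, 11.24 and 2.95 TPM) had other orders. NFKB1 had a level total and an unstable division, in which NM_003998.4 held 25.2%, 2.12%, 67.0% and 0% of the TPM. In TNFAIP3 NM_001270508.2 held 22.7%, 0%, 69.3% and 35.3%. For CXCL8 NM_000584.4 held all of the TPM in the control and combination libraries and 42.9% with NBT, where 8.58 of the 25 reads were assigned to NM_001354840.2, and the TPM of the gene was 2.30 with NBT and 2.28 in the control. The division is an estimate for which no error was given, and shares that swing by over 50 points between single libraries were not interpreted.

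Other genes of the pathway were read from 6 lists with 87 different genes, of which 85 were in the table, and the lists include the 10 genes above. The IKK list adds the related kinases IKBKE and TBK1, and the subunit list adds REL. No gene of either list was called in any comparison. Each list holds 5 genes, and 2.61% to 8.42% of all genes were called, so 0 called is near the share of all genes. REL, the c-Rel subunit, had 2271, 2356, 2809 and 2956 reads and a log2 ratio of 0.29 with trametinib and 0.32 with the combination, and the median of the 5 subunit genes was -0.060 under NBT, 0.29 under trametinib and 0.32 under the combination. The corresponding medians over all genes with at least 10 reads were 0.00032, 0.076 and 0.036. Of the 12 inhibitors and brakes only CYLD, a deubiquitinase that opposes IKK activation, was called, and only with the combination against control, where 8.42% of all genes were called, so 1 of 12 is near the share of all genes. CYLD had 1011, 1364, 1260 and 2195 reads, a log2 ratio of 1.06 (from 0.95 to 1.16), while NFKBIA and TNFAIP3 of the same list were not called. The median of this list was 0.082 under NBT, 0.25 under trametinib and 0.26 under the combination.

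Among the 15 upstream receptors and ligands, of which 9 or 10 had at least 10 reads, the interleukin genes IL1A and IL1B were the most divergent. IL1A had 373 control reads, 904 under NBT, 114 under trametinib and 236 under the combination, and was called higher with NBT (log2 ratio of 1.23, from 1.05 to 1.41) and lower with trametinib (-1.72, from -2.04 to -1.42). IL1B had 282, 151, 166 and 13 reads and was called lower with the combination against control (-4.45, from -5.43 to -3.70) and against each single drug. Against control the list gave 1 gene called higher with NBT (IL1A), 1 higher (TNFRSF1B) and 1 lower (IL1A) with trametinib, and 1 higher (TNFRSF1B) and 1 lower (IL1B) with the combination, beside 2.61%, 5.96% and 8.42% of all genes called in either direction. TNFRSF1B, a TNF receptor gene, had 10, 11, 29 and 30 reads and is named here after its values were seen.

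Of the 24 adaptors and upstream kinases 0 were called under NBT, 1 under trametinib and 2 under the combination against control, beside 2.61%, 5.96% and 8.42% of all genes, so the counts were near or below the shares of all genes. TRAF1, an adaptor of receptors of the TNF family that is itself an NF-κB target, had 44, 52, 69 and 332 reads and was higher with the combination by a log2 ratio of 2.84 (from 2.40 to 3.34). CARD10, a scaffold that recruits BCL10 and MALT1 upstream of IKK, had 3489, 2340, 2547 and 1582 reads and was lower with the combination by -1.20 (from -1.29 to -1.12). MALT1, the paracaspase of the same complex, had 1260, 1070, 624 and 671 reads and was called lower with trametinib at -1.03 (from -1.17 to -0.89), at the edge of the limit. The estimated counts of MALT1 were not whole numbers.

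Of the 32 target genes 30 were in the table (CXCL1 and CXCL6 were not analysed here), and 23 of them had at least 10 reads with NBT or with the combination and 22 with trametinib. With NBT 1 was called higher (CXCL2) and 1 lower (IL6) than in the control. With trametinib 1 was called higher (CSF1) and 5 lower (CXCL8, LIF, TNFAIP2, IER3 and PLAU), and with the combination 4 higher (CXCL2, CXCL3, CSF1 and TRAF1) and 3 lower (TNFAIP2, IER3 and PLAU). Over all genes tested 1.6% were called higher and 1.01% lower under NBT, 3.82% and 2.15% under trametinib, and 4.73% and 3.69% under the combination. Between the combination and trametinib libraries 6 targets were called higher (CXCL8, CXCL2, CXCL3, LIF, IER3 and TRAF1) and 0 lower, beside 2.56% and 3.55% of all genes. Between the combination and NBT libraries 5 were called higher and 4 lower, beside 2.38% and 1.99%. All these shares are of genes with at least 1 read, whereas the list counts are of genes with at least 10. The lists were chosen with earlier results of these data known, so the counts are not a test of the target genes. IER3, a stress-response gene, had 4587, 5422, 410 and 1214 reads and a log2 ratio of -3.50 (from -3.65 to -3.35) under trametinib and -1.98 (from -2.07 to -1.89) under the combination. PLAU, the urokinase gene, had 4196, 4393, 1398 and 862 reads, with log2 ratios of -1.60 (from -1.69 to -1.51) and -2.35 (from -2.45 to -2.24). TNFAIP2 had 913, 647, 192 and 205 reads, and its log2 ratios of -2.26 and -2.22 were nearly the same in both libraries with trametinib.

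The chemokine gene CXCL2 was highest with the combination and had 23 control reads, 96 under NBT, 43 under trametinib and 594 under the combination, a log2 ratio of 4.598 (from 4.03 to 5.30). CXCL3 had 4, 11, 6 and 69 reads and a log2 ratio of 3.89 (from 2.62 to 5.96) with the combination. CXCL2 and CXCL3 are close in sequence and their estimated counts were not whole numbers, so the division of reads between them is uncertain. CXCL8, a chemokine of the same family, was level between the control and combination libraries. The median of the target list was -0.043 under NBT, -0.070 under trametinib and 0.016 under the combination, the last of which turned to between -0.024 and -0.011 with other scalings and with TPM. NFKBIA, TNFAIP3, NFKB2, RELB and CXCL8 are themselves in the target list, and TRAF1 and BIRC3 are counted under both adaptors and targets.

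**Figure D5:**
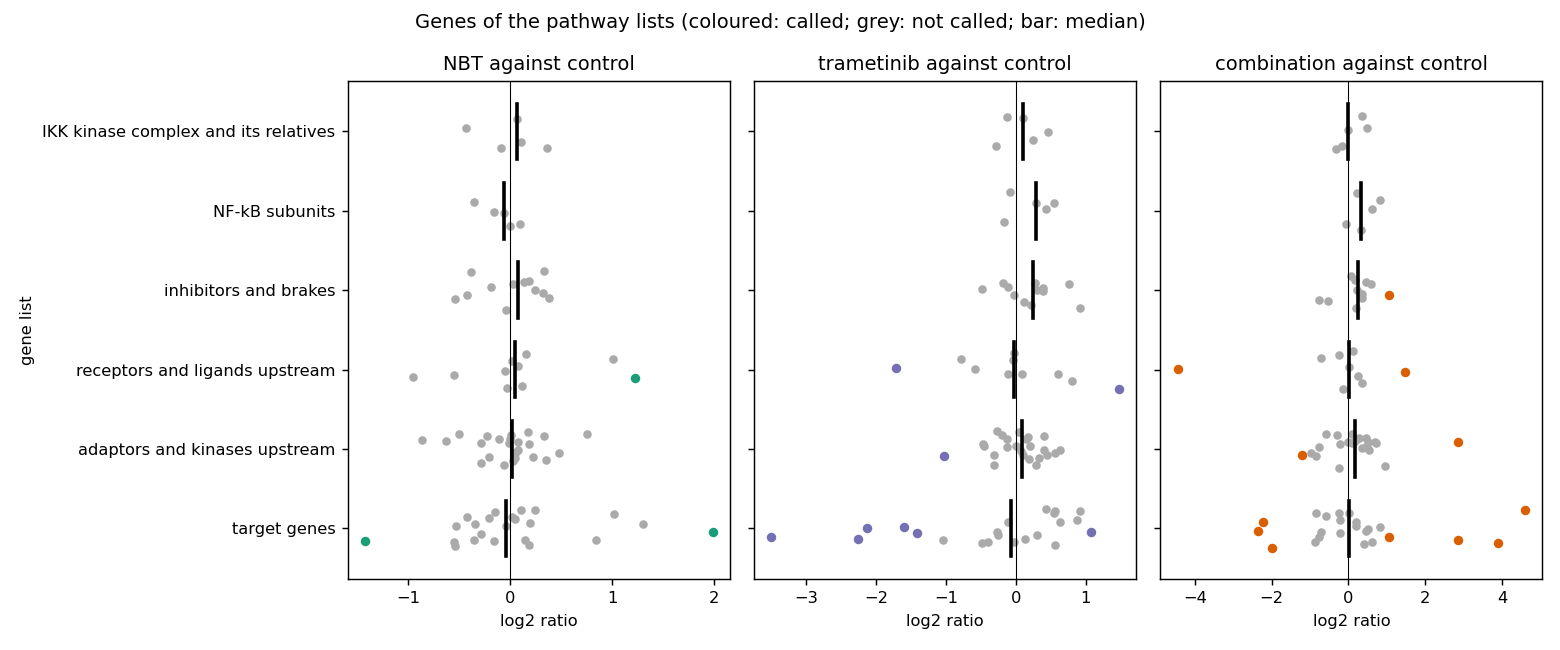
Log2 ratio against control (x axis) of the genes of 6 pathway lists (y axis) with at least 10 reads, in a panel for each treated library. Points are genes, coloured where called and grey where not, and black bars are list medians. The IKK and subunit lists, of 5 genes each, hold no called gene, beside 2.61%, 5.96% and 8.42% of all genes. The called target genes lie on both sides of 0, 4 higher and 3 lower with the combination.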

How the data were processed

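Transcripts of MIA PaCa-2 cells were measured in 4 conditions with 1 library each, of 18776212 to 19614763 estimated reads. The authors deposited for each gene and transcript an estimated count without normalization, a TPM value scaled to length and library sum, and an FPKM value that was not used here. The labels' processing notes name Bowtie2 2.2.5, RSEM 1.2.8 and hg38, and no strand setting. The estimated counts, not whole for 53.9% of genes, were rounded and scaled to library sums. Log2 ratios were computed with 0.5 reads added. Ratios of 2 libraries were given 95% Clopper-Pearson intervals. Genes with at least 1 read in either library were tested by a two-sided exact binomial test (Benjamini-Hochberg adjusted) and called at 0.05 and an absolute log2 ratio of 1. No p-value is given, since the test compares libraries. Intervals of departures from additivity summed the counting variances of the 4 counts.

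The 10 genes and the 6 lists were chosen with earlier results of these data known. Named genes were the 10 genes and, per list, up to 6 called genes with at least 50 reads in the higher library, by largest absolute log2 ratio. TNFRSF1B and PTGS2 were called as well and fell below 50 reads. A rule naming the 3 genes nearest in pattern to each called gene with 50 reads yielded none. All columns of values were mapped to a library. Groups follow sample titles and treatments. Gene positions are from GENCODE v29 (GRCh38) and promoter windows from RefSeq (GRCh38.p14). Alternatives were TMM scaling (edgeR 4.0.16), median-of-ratios scaling (DESeq2 1.42.0), TPM with a pseudocount of 0.1, 5 reads added, summed transcript counts, other count minimums, other log2 limits, and edgeR's negative binomial exact test with assumed coefficients of variation of 0.2 and 0.4. The calling steps were tested on simulated data with known changes set in genes of at least 50 reads. The simulation held counting error only. It did not cover variation between cultures or changes in genes with fewer reads, such as CXCL8. Python 3.11.15, numpy 2.4.6, pandas 2.3.3, scipy 1.17.1, statsmodels 0.14.6 and R 4.3.3 were used.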

Additional observations from a re-analysis of the deposited data

Results flagged for a closer look

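The difference of each result below was not tested, because there was 1 library per condition. NFKB2 was lower with NBT than in the control by a log2 ratio of -0.15 and higher with the combination than with trametinib by 0.27, so the NBT effect had opposite signs without and with trametinib, a difference of 0.42. RELB showed the same opposite signs, -0.36 without and 0.18 with trametinib, a difference of 0.54. For RELA it was the trametinib effect that had opposite signs, -0.17 without and 0.13 with NBT, a difference of 0.30. Each of these log2 ratios has a counting interval that excludes 0, and each is below the limit of 1.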

How the results depend on the processing

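No paired analysis was possible because each condition has 1 library, and for the same reason no replicate could be left out. The comparisons are given in the order NBT, trametinib and combination against control, then combination against trametinib and against NBT. The 250 recomputed log2 ratios of the 10 genes and their 50 recomputed departures from additivity moved by less than their counting error. Some ratios turned sign, and those of CXCL8 were not all near 0 but had wide counting intervals. With TPM the NBT values of CXCL8 and IKBKG became 0.012 and -0.019, and CXCL8 between combination and NBT went from 0.54 to -0.037. TMM and median-of-ratios scaling moved all genes by at most 0.075 on the log2 scale. The calls depended on the limits. With 0.2 as the assumed coefficient of variation between cultures the called genes numbered 69, 365, 547, 302 and 204, with 0.4 they numbered 4, 22, 51, 14 and 13, without a log2 limit 5635, 6915, 8056, 7428 and 6079, and with a limit of 2 they numbered 116, 352, 401, 252 and 251. In the main analysis they numbered 414, 966, 1366, 998 and 709. Of the 10 genes, 5, 8, 7, 6 and 5 were called without a log2 limit. All genes tested numbered 15888, 16197, 16229, 16343 and 16250, of which the 5635, 6915, 8056, 7428 and 6079 above were called so. Genes tested include all with at least 1 read, so these counts are not alike in depth. With coefficients of 0.2 or 0.4, or with a limit of 2, CXCL8 was no longer called and 0 of the 10 genes passed in the 2 comparisons in which it had. With TPM 1 gene, NFKB2, was called between combination and NBT, and with TMM scaling 2 genes instead of 1 had an interval below 0 there. With TMM and with median-of-ratios scaling 6 genes instead of 5 had an interval below 0 with trametinib, NFKB1 being added, and 6 instead of 5 an interval above 0 between combination and trametinib, and with median-of-ratios scaling 4 instead of 5 were above 0 with the combination. The departure of CXCL8 was 1.12 with TPM instead of 1.95. The median of the target genes between combination and NBT was 0.22 and became -0.037 with TPM. CXCL8, with at most 37 reads, is limited by depth.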
